A study of Mus musculus with 8 samples.

Results

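Prostaglandin synthesis and signalling was followed through 9 genes in cells of the mouse embryonic arteries at E10.5, when blood stem cells first form. The genes were the cyclooxygenases Ptgs1 and Ptgs2, the terminal synthases Ptges, Ptgis and Ptgds, and the prostaglandin E2 receptors Ptger1, Ptger2, Ptger3 and Ptger4. They were taken by gene name from the array, with every probe that carries the name. That gave 11 probes for 9 of the 31890 genes named on the array. Of these, 7 genes were measured, meaning well above background on each of a group's 2 arrays in 1 group or more, and 2, Ptger1 and Ptger4, were not.

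Cyclooxygenases turn arachidonic acid, cut from membrane lipids by phospholipases, into prostaglandin H2, the shared precursor. Ptgs1 is the enzyme most cells make steadily and Ptgs2 the one induced by inflammation and blood flow. Terminal synthases then decide the product: prostaglandin E2 (Ptges), prostacyclin (Ptgis) or prostaglandin D2 (Ptgds). The receptors for prostaglandin E2 differ in their signal: Ptger2 and Ptger4 raise cyclic AMP, Ptger3 mostly lowers it, and Ptger1 raises calcium. Prostaglandin E2 is known to promote the formation of blood stem cells from arterial endothelium in zebrafish and mouse embryos.

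Embryos came from C57BL/6 x 129S1/SVImJ F1 females mated with Tg(Ly6a-GFP) males. Ly6a encodes Sca-1, an antigen of blood stem cells, and its promoter makes cells green fluorescent (GFP) in this transgene, so GFP reports that promoter and not a fixed cell type. Tissue of 100 embryos was pooled from the umbilical artery, the vitelline artery and the aorta-gonad-mesonephros region, and the labels give no treatment for any of the 4 groups. Hematopoietic cluster cells, which bud from the arterial wall, were sorted as CD31+ VEC+ ESAM+ Kit+ and endothelial cells as CD31+ VEC+ ESAM+ Kit-. From clusters came 30000 GFP+ and 130000 GFP- cells, and from endothelium 70000 GFP+ and 300000 GFP- cells. Each group's RNA was divided in 2 and each part hybridised to 1 array, so p-values measure the spread between parts of 1 RNA pool, which is technical, and not between embryos. In such bulk RNA, fewer cells of a type and less RNA per cell cannot be told apart.

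Across the 8 arrays, 54.6% to 63.7% of probes were well above background and none was saturated. Ly6a, which the sort should raise, was higher in GFP+ than GFP- cells by 3.39 (log2) in clusters and 4.07 in endothelium. Kit was higher in cluster than endothelial cells by 1.55 among GFP+ and 0.64 among GFP- cells. The endothelial markers Cdh5 and Esam were well above background in all groups. Other cell types' markers moved with the groups. All 12 macrophage markers were called higher in GFP+ than GFP- cluster cells, and 11 of 11 measured in GFP+ than GFP- endothelium. Their summed level was 32.1 to 32.3 in GFP+ cluster cells, against 11.1 to 11.3 in GFP- cluster cells, 11.6 to 12.1 in GFP+ endothelium and 5.10 to 5.23 in GFP- endothelium (sums of linear signal over each array's 75th percentile). All 8 blood markers, which are genes of blood cells in general and include Runx1, were called higher with GFP in clusters and higher in GFP+ clusters than GFP+ endothelium, and 7 of 8 with GFP in endothelium. They summed to 39.2 to 40.7 in GFP+ clusters, 9.83 to 9.84 in GFP- clusters, 4.12 to 4.17 in GFP+ endothelium and 2.08 to 2.19 in GFP- endothelium, the same order of groups as for Pla2g4a, Adcy7 and Slco4a1 below. The 10 megakaryocyte markers summed to 13.8 to 13.9, 7.06 to 7.08, 11.4 to 12.1 and 22.1 to 22.2 in the same order. The 10 mesenchyme and smooth muscle markers summed to 30.3 to 31.0, 35.4 to 35.9, 35.0 to 35.4 and 38.1 to 38.9. The 9 erythroid markers summed to 135 to 136, 966 to 985, 145 to 153 and 663 to 691. Of the 7 mast cell markers, Fcer1a and Tpsab1 were well above background on none of the 8 arrays. The 7 summed to 0.23 to 0.30, 0.19 to 0.29, 0.15 to 0.17 and 0.15 to 0.20, so the cluster groups overlapped. The part of these cells in the results that follow was not tested.

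Each level below is what 1 probe reads, so the probes are shown first. They are 60 bases long, lie on build mm9, and are printed 5′ to 3′ as the array carries them. The 30 middle bases are shown, or 30 around a polyadenylation hexamer, AATAAA or ATTAAA, in capitals. The Ptges and Ptger3 probes within the coding sequence are given whole, because each of these genes has a second probe that read differently.
Ptgs1 (chr2:36105892-36105951, plus strand): tctttccaaagatgtggagggaacagatgg
Ptgs2 (chr1:151954744-151954803, plus strand): aagttagaacttaggctgttggaatttacg
Ptges, from base 364 of the transcript (chr2:30748214-30748273, minus strand): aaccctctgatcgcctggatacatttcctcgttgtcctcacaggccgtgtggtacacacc
Ptges, from base 3583 (chr2:30744995-30745054, minus strand): aagtcagccccaATTAAAtgctttccttta
Ptgis (chr2:167028696-167028755, minus strand): gcaggaaaagctAATAAAagctctgtatct
Ptger2 (chr14:45622004-45622063, plus strand): caaatgaaattcattctctaggaagtcaac
Ptger3, from base 1069 (chr3:157268044-157268103, plus strand): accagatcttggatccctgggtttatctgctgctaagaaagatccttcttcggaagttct
Ptger3, from base 1803 (chr3:157307508-157307567, plus strand): gagctgttaaaaggaaaaccagctaattat
The 2 Ptges probes start 3219 bases apart in both the transcript and the genome, so no intron lies between them. The 2 Ptger3 probes start 734 bases apart in the transcript and 39464 bases apart in the genome, so splicing joins their sites. Ptger3 is known to make several splice forms that differ in the receptor's tail. Which of these forms either probe reads was not determined.

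Of the 7 measured genes, GFP+ cluster cells had the highest mean level of Ptgs1, Ptgs2, Ptger2, Ptger3 and Ptgds, and GFP+ endothelial cells that of Ptgis. A difference was called where limma's adjusted p was below 0.05 and the probe was measured, as defined above, in 1 or more of the groups compared. Between GFP+ and GFP- cluster cells, 6 of 9 measured member probes (5 genes) were called higher and 0 lower. Of all probes measured in that comparison, 11.9% were called higher and 20.0% lower. Between GFP+ and GFP- endothelial cells, 2 of 6 member probes were called higher and 4 lower, against 18.2% and 33.8% of all probes. Between cluster and endothelial cells, among GFP+ cells, 6 of 9 were higher and 1 lower in clusters, against 25.6% and 24.8%. Among GFP- cells, 2 of 6 were higher and 1 lower, against 11.8% and 12.1%. The 4 comparisons share groups of arrays, so their counts are not independent. Ptgs2, Ptger2 and Ptger3 from base 1069 were measured only in GFP+ clusters. They entered both comparisons of that group through it alone, so a call of higher was largely fixed in advance. The member counts therefore cannot show whether the gene set leans in a direction. With all arrays required to be well above background, only Ptgs1, Ptges and Ptgis were left to test among the members. Of these 3 genes, 2 were called between the cluster groups and 3 between the GFP+ groups. Of all 20579 probes left by that filter, 7723 and 11021 were called. Under quantile normalization the split of all endothelial GFP calls moved from 35.0% to 46.7% higher. The median over all 24364 tested probes in that comparison was -0.13 in the main scaling and -0.04 with quantile normalization. With normexp background correction no member gene passed in any comparison by limma; at an unadjusted p below 0.05 there were 2, 2, 1 and 0 in these 4 comparisons. It also turned the sign of the endothelial GFP difference of Slco4a1, Adcy7, Runx1, Ptgfr and Pde3a, named below. That rested on 2 spots of 1 array with a local background above 1000: with both left out, 5, 2, 6 and 1 member genes were called, where the main scaling gave 5, 5, 6 and 3. The offset of 50 that goes with normexp makes dim probes differ less: without the 2 spots the GFP difference in clusters was 0.51 for Ptgs2, 0.49 for Ptger2 and 0.39 for Ptger3 from base 1069.

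**Figure D1:**
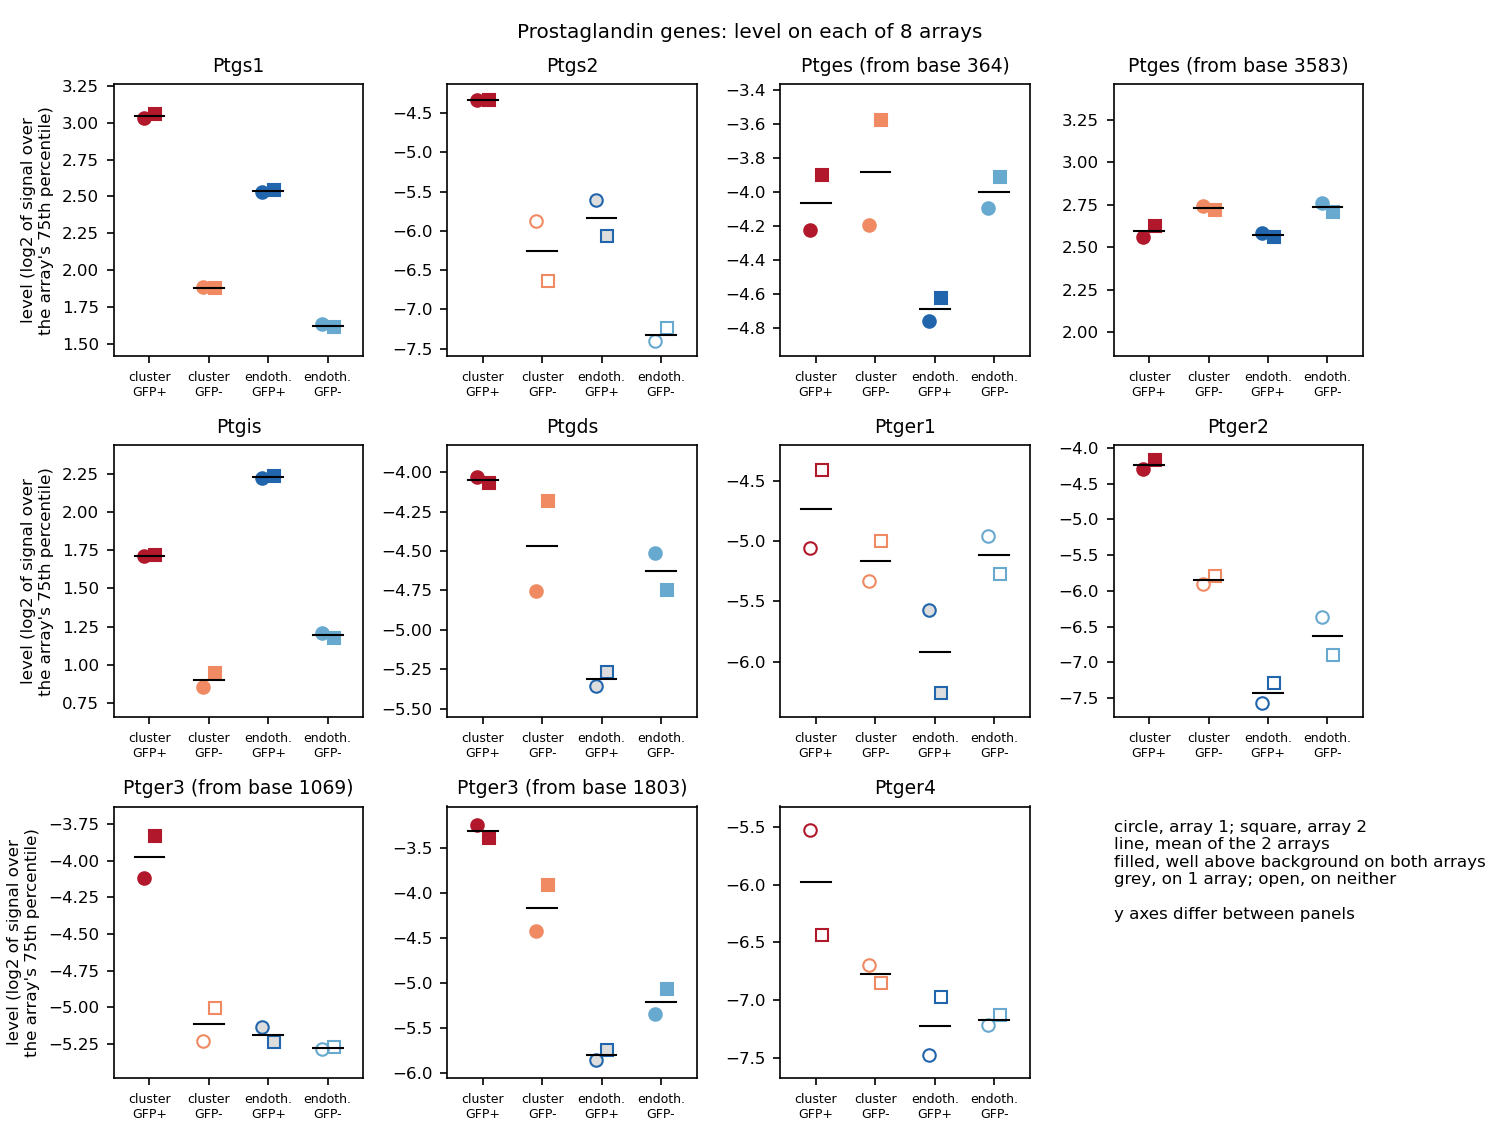
Level of each member probe on the 8 arrays, as log2 of the processed signal over that array's 75th percentile; circles are array 1, squares array 2, lines the mean of the 2 arrays, and filled points mark groups in which both arrays were well above background. Ptgs1 ran from 1.61 in GFP- endothelium to 3.06 in GFP+ clusters, while Ptger1 and Ptger4 have no filled group; y axes differ between panels.

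Ptgs1, the steadily made cyclooxygenase, was measured in all groups and differed with GFP in both cell classes. Its levels were 3.03 and 3.06 in GFP+ cluster cells, 1.88 and 1.88 in GFP- cluster cells, 2.53 and 2.54 in GFP+ endothelium, and 1.63 and 1.61 in GFP- endothelium (log2 over the array's 75th percentile). No 2 groups overlapped, and both GFP+ groups lay above both GFP- groups. The SD of a group's 2 arrays was at most 0.020. In cluster cells the GFP+ minus GFP- difference was 1.16 ± 0.041 (SE; adjusted p = 4.82e-05), a 2.24-fold rise, and was 1.15 and 1.18 on the 2 slides. In endothelium it was 0.91 ± 0.041 (adjusted p = 0.000140), or 1.88-fold, and 0.90 and 0.93 on the slides. The class difference was smaller: cluster cells were higher than endothelium by 0.51 among GFP+ cells (adjusted p = 0.000421) and by 0.26 among GFP- cells (adjusted p = 0.0115). The GFP difference was larger in clusters by 0.25 ± 0.058 (adjusted p = 0.0256). That call was lost without any 1 of the 8 arrays, with adjusted p from 0.0531 to 0.0784. The GFP- class call also ended without either array of GFP- clusters or of GFP- endothelium, with adjusted p from 0.0507 to 0.0656.

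Ptgs2, the inducible cyclooxygenase, was near the detection limit. Its probe is printed at 10 places on the array, which shows the scatter of the readings. Its levels were -4.33 and -4.34 in GFP+ cluster cells, -5.87 and -6.64 in GFP- cluster cells, -5.61 and -6.07 in GFP+ endothelium, and -7.40 and -7.24 in GFP- endothelium. GFP+ cluster cells were highest and did not overlap any other group, and GFP- endothelium was lowest. Of 10 spots, 7 and 10 were well above background on the arrays of GFP+ cluster cells. On those of GFP+ endothelium 10 and 0 were, on GFP- endothelium 1 and 0, and on GFP- clusters 0 and 0. The lowest signal of any probe that counted differed between arrays. It was -6.18 on array 1 of GFP+ endothelium, against -5.50 to -4.63 on the others. There 10 Ptgs2 spots counted at a median signal of 19.0, while 0 did on array 1 of GFP- clusters at 18.5. The same array is the 1 of GFP+ endothelium that counted for Ptgds, Ptger1 and Ptger3 below. By these counts Ptgs2 was measured on both arrays only in GFP+ cluster cells, and on 1 of 2 in GFP+ endothelium. It was at least 1.82-fold higher in GFP+ than GFP- clusters (fitted difference 1.92 ± 0.27, adjusted p = 0.00452, and 1.54 and 2.30 on the slides). Here "at least" sets the bright mean against the lowest signal that counted as well above background on each dim array, or the probe's own if higher. It holds for the main scaling only, since normexp gave smaller differences, and is not a strict limit. The lowest signal that counted belongs to other probes, so a dim probe can read higher and still not count. Against GFP+ endothelium the fitted difference was 1.50 ± 0.27 (adjusted p = 0.00659), which with quantile normalization was 0.88 (adjusted p = 0.0726). Of the 2 arrays of GFP+ endothelium, 1 was not well above background for Ptgs2, so this is a fitted value and no fold.

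**Figure D2:**
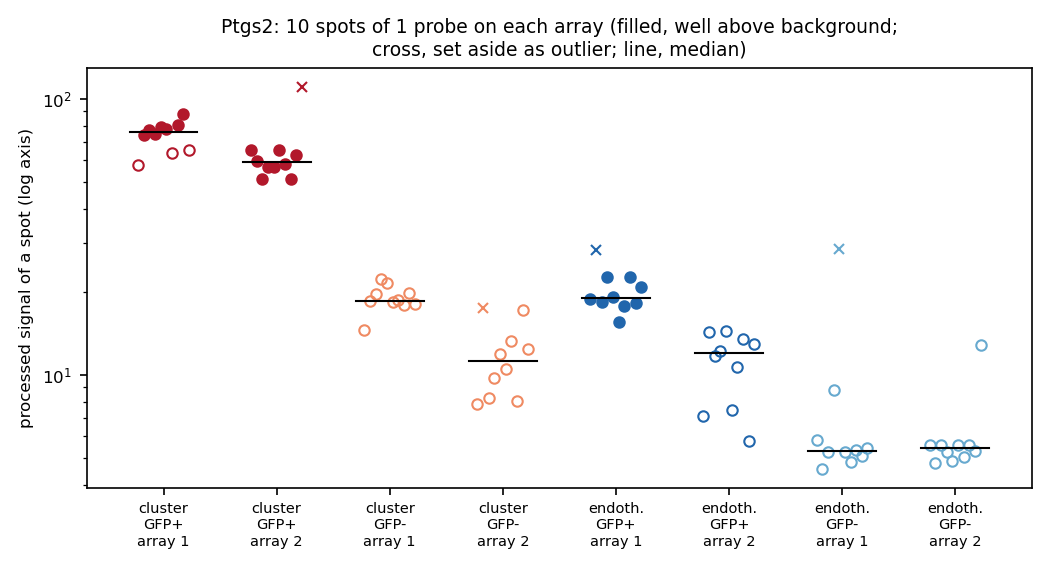
Processed signal of each of the 10 Ptgs2 spots on each array, on a log axis; filled spots were well above background, crosses were set aside as outliers and lines are medians. The medians were 75.9 and 59.0 in GFP+ cluster cells, 18.5 and 11.2 in GFP- cluster cells, 19.0 and 12.0 in GFP+ endothelium and 5.31 and 5.42 in GFP- endothelium.

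Since both cyclooxygenases were higher in GFP+ clusters, the 250 bases before their start sites are shown, from RefSeq on build GRCm38.p6. Letters that match TGNGGT on either strand are in capitals. This is a loose form of the core bound by Runx factors, which reads TGTGGT or TGCGGT. A promoter was at hand for 7 of the 9 genes.
Ptgs1 promoter (chr2:36230176-36230425, plus strand): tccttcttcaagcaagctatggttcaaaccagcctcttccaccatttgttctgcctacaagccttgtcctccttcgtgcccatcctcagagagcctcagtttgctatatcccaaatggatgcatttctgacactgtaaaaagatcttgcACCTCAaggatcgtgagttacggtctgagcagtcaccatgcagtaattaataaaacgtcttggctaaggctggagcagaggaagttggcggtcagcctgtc
Ptgs2 promoter (chr1:150099781-150100030, plus strand): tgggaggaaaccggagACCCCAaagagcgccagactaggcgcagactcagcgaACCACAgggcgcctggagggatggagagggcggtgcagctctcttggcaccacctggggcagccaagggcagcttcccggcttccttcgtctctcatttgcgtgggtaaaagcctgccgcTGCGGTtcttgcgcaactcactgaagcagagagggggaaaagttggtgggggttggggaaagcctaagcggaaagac
The Ptgs1 window held 1 match, 101 to 96 bases before the start, and was 48.0% G and C. This match reads TGAGGT, which is outside the stricter core. The Ptgs2 window held 3, from 234, 197 and 77 bases before the start, and was 61.6% G and C. In that order they read TGGGGT, which is outside the stricter core, TGTGGT and TGCGGT. Of 32851 mouse promoters of that length, 40.1% held a match to the loose form. GGAA, the core bound by Ets factors, was found 2 times in the Ptgs1 window and 6 times in the Ptgs2 window, and in 93.4% of all promoters. On both strands, neither window held TGACG, the core site for cyclic AMP response factors (17.8% of all promoters), GATAA (22.6%), CACGTG (6.0%) or the NF-kB motif (7.3%). A match describes letters and no site of binding. The search covered only the 250 bases before the RefSeq start. Bases after that start or farther before it were not searched, so a motif absent from a window can lie just outside it.

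Ptgis, prostacyclin synthase, was higher with GFP in both classes, like Ptgs1, but was highest in GFP+ endothelium. Its levels were 1.71 and 1.72 in GFP+ cluster cells, 0.86 and 0.95 in GFP- cluster cells, 2.22 and 2.24 in GFP+ endothelium, and 1.21 and 1.18 in GFP- endothelium. The groups did not overlap, and the order was GFP+ endothelium, GFP+ clusters, GFP- endothelium, GFP- clusters. In endothelium the GFP+ minus GFP- difference was 1.04 ± 0.049 (adjusted p = 0.000157), or 2.05-fold, and 1.02 and 1.06 on the slides. In clusters it was 0.81 ± 0.049 (adjusted p = 0.000218), or 1.76-fold, and 0.85 and 0.77 on the slides. Cluster cells fell below endothelium by 0.51 ± 0.049 among GFP+ cells (-0.51, adjusted p = 0.000711) and by 0.29 among GFP- cells (-0.29, adjusted p = 0.0136). The GFP- class call ended without either array of GFP- endothelium or array 1 of GFP- clusters, with adjusted p from 0.0579 to 0.0697. The GFP difference itself was -0.22 ± 0.070 in clusters relative to endothelium and did not pass (adjusted p = 0.0580). Ptgs1 was thus higher in cluster cells than endothelium at each GFP state, while Ptgis was lower.

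Ptges, the inducible prostaglandin E synthase, was read by both probes on all 8 arrays. The probe at the 3′ end gave 2.56 and 2.62 in GFP+ clusters, 2.74 and 2.72 in GFP- clusters, 2.58 and 2.56 in GFP+ endothelium, and 2.76 and 2.71 in GFP- endothelium. Both GFP+ groups lay slightly below both GFP- groups. The difference in endothelium was -0.16 ± 0.047 (adjusted p = 0.0324), but -0.06 with quantile normalization (adjusted p = 0.373), and the call ended without any 1 of 6 arrays (adjusted p from 0.0588 to 0.130). In clusters it was -0.14 ± 0.047 (adjusted p = 0.0760), and the class differences were 0.02 among GFP+ and -0.0021 among GFP- cells. The coding probe gave -4.22 and -3.90 in GFP+ clusters, -4.19 and -3.58 in GFP- clusters, -4.76 and -4.62 in GFP+ endothelium, and -4.10 and -3.91 in GFP- endothelium. GFP+ endothelium was the lowest group, and the other 3 overlapped. It was lower in GFP+ than GFP- endothelium by a log2 difference of -0.69 ± 0.22 (adjusted p = 0.0436), a call that ended without any 1 of 6 arrays (adjusted p from 0.0520 to 0.171). The GFP+ class difference of 0.63 ± 0.22 missed the threshold (adjusted p = 0.0583). It passed with the slide as a replicate block (adjusted p = 0.0131), only the compared groups (0.0382), all arrays above background (0.0396) and trend and robust moderation (0.0452). With quantile normalization the difference was 0.29 (adjusted p = 0.176), and with normexp without the 2 spots 0.21 (adjusted p = 0.295). The large GFP rises of Ptgs1 and Ptgis therefore had no counterpart of that size in either Ptges probe. The probes read far apart, at 2.56 and 2.62 against -4.22 and -3.90 in GFP+ clusters. Which of them follows the coding transcript was not determined, so this holds for the probes as read.

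Ptgds, a prostaglandin D synthase known from brain and arteries, was dim. Its levels were -4.03 and -4.07 in GFP+ clusters, -4.76 and -4.18 in GFP- clusters, -5.36 and -5.27 in GFP+ endothelium, where 1 of 2 arrays was well above background, and -4.51 and -4.75 in GFP- endothelium. GFP+ endothelium was again the lowest, and the GFP- groups overlapped. Between GFP+ clusters and GFP+ endothelium the fitted difference was 1.26 ± 0.19 (adjusted p = 0.00332), and 0.77 with quantile normalization (adjusted p = 0.0111). With 1 of the 2 endothelial arrays not well above background, no fold is given. In endothelium GFP+ cells were lower (-0.68 ± 0.19, adjusted p = 0.0281), but this was -0.34 with quantile normalization (adjusted p = 0.135), and the call ended without any 1 of the 4 endothelial arrays (adjusted p from 0.0586 to 0.129). In clusters the difference was 0.42 ± 0.19 (adjusted p = 0.151), and it passed without array 2 of GFP- clusters (0.71, adjusted p = 0.0193).

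**Figure D3:**
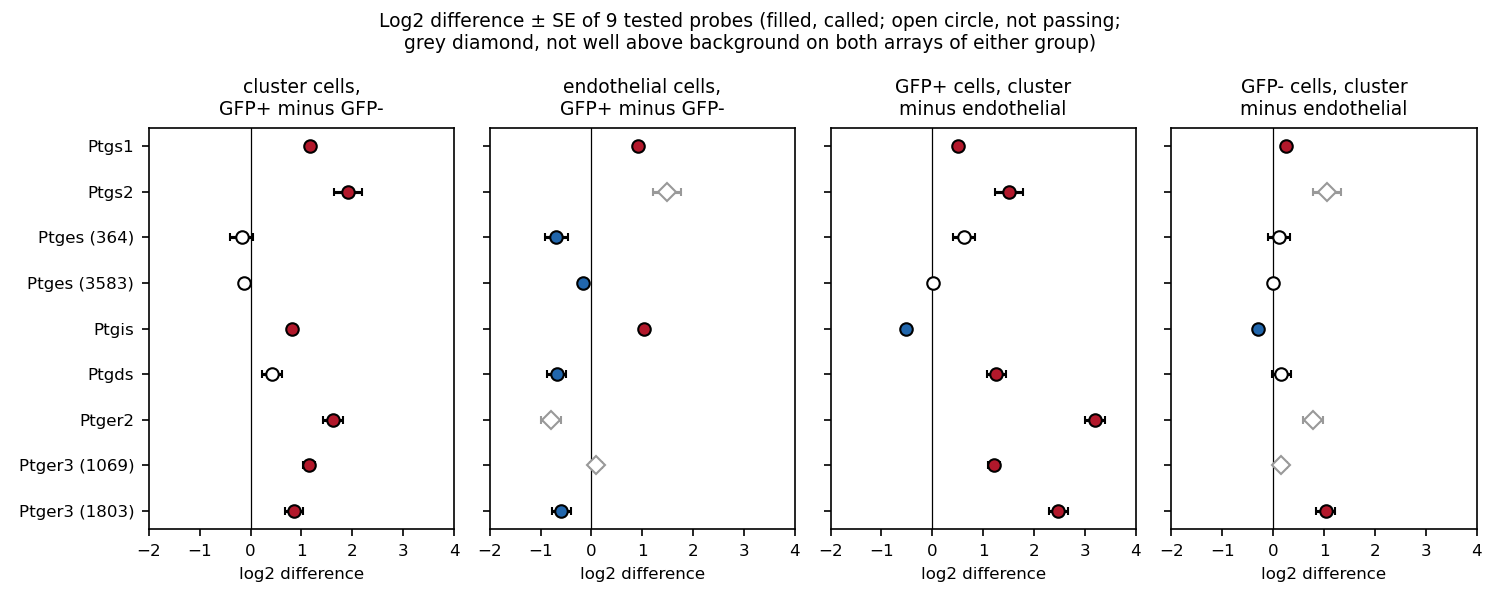
Log2 difference with its SE for the 9 tested member probes in 4 comparisons; filled red points were called higher, filled blue lower, open circles did not pass and grey diamonds were not well above background on both arrays of either group. Ptgs1 and Ptgis were higher with GFP in both classes (0.81 to 1.16). For Ptger2 the fitted difference between GFP+ clusters and GFP+ endothelium was 3.20. Its probe was well above background on neither array of GFP+ endothelium, so 3.20 partly compares readings near background.

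Of the 4 receptors of prostaglandin E2, Ptger2 and Ptger3 were measured, and both were highest in GFP+ cluster cells. Ptger2, which raises cyclic AMP, gave -4.30 and -4.16 in GFP+ clusters, -5.91 and -5.80 in GFP- clusters, -7.57 and -7.29 in GFP+ endothelium, and -6.37 and -6.90 in GFP- endothelium. GFP+ clusters overlapped no other group, and were the only one of the 4 in which the probe was well above background on both arrays. Ptger2 was at least 1.96-fold higher there than in GFP- clusters (fitted difference 1.62 ± 0.19, adjusted p = 0.00228, and 1.61 and 1.63 on the slides). It was at least 2.60-fold higher than in GFP+ endothelium (fitted difference 3.20 ± 0.19, adjusted p = 0.000175). In endothelium neither GFP group was well above background, so no fold is given.

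Ptger3, which lowers cyclic AMP, was higher in GFP+ clusters by both probes. The probe from base 1803 gave -3.24 and -3.39 in GFP+ clusters, -4.43 and -3.92 in GFP- clusters, -5.86 and -5.74 in GFP+ endothelium, where 1 of 2 arrays was well above background, and -5.35 and -5.07 in GFP- endothelium. Both cluster groups lay above both endothelial groups, with no overlap. Clusters exceeded endothelium by a fitted 2.48 ± 0.18 among GFP+ cells (adjusted p = 0.000327), and by 1.04 ± 0.18 among GFP- cells (adjusted p = 0.0153). The GFP- call ended without array 1 of GFP- endothelium (adjusted p = 0.0769), when dim probes were not filtered out (0.0583), with only the compared groups in the fit (0.0567) and with normexp without the 2 spots, where the difference was 0.23 (adjusted p = 0.283). The GFP- class calls of Ptgs1 and Ptgis ended in the same way without that filter (adjusted p = 0.0685 and 0.0692) and with only the compared groups (0.0521 and 0.0581). GFP+ clusters exceeded GFP- clusters by 0.85 ± 0.18 (adjusted p = 0.0190, and 1.18 and 0.53 on the slides). That call ended without either array of GFP+ clusters or array 1 of GFP- clusters (adjusted p from 0.0536 to 0.0857), when dim probes were not filtered out (0.0568), with only the compared groups (0.0641) and with normexp without the 2 spots, at 0.40 (adjusted p = 0.0583). In endothelium the GFP+ minus GFP- difference was -0.59 ± 0.18 (adjusted p = 0.0412), but -0.11 with quantile normalization (adjusted p = 0.526), and the call ended without any 1 of 6 arrays (adjusted p from 0.0602 to 0.180).

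The Ptger3 probe from base 1069 gave -4.12 and -3.83 in GFP+ clusters, -5.23 and -5.00 in GFP- clusters, -5.13 and -5.24 in GFP+ endothelium, and -5.28 and -5.27 in GFP- endothelium. It was well above background on both arrays of GFP+ clusters, 1 of 2 of GFP+ endothelium and none of the others. By this probe Ptger3 was higher in GFP+ than GFP- clusters by a fitted 1.14 ± 0.12 (adjusted p = 0.00147, and 1.11 and 1.17 on the slides). On array 1 of GFP- clusters it read above the lowest signal that counted there (-5.43) and still did not count. No bound is given for that reason. Against GFP+ endothelium the fitted difference was 1.21 ± 0.12 (adjusted p = 0.000782), and 0.77 with quantile normalization (adjusted p = 0.00240). Both probes therefore gave a rise with GFP in clusters. They differed in GFP- clusters, where the probe from base 1803 was well above background on both arrays and this one on neither.

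Ptger1, the calcium-linked receptor, was well above background on 1 of 8 arrays, with levels from -6.26 to -4.41. Ptger4, the other receptor that raises cyclic AMP, was so on 0 of 8, with levels from -7.48 to -5.52. Neither could be compared, and their readings allow only that any signal was not detectable above background here.

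The genes around the members were taken from 7 lists, each gene by its brightest probe. They include phospholipases that free arachidonate, other prostanoid synthases and receptors, transporters and breakdown enzymes, cyclic AMP signalling, genes reported to respond to prostaglandin E2, and the leukotriene arm. The share of all measured probes called higher and lower with GFP, 11.9% and 20.0% in clusters and 18.2% and 33.8% in endothelium, and the medians of these probes, -0.07 and -0.12, are the background for each list. That background counts every measured probe, while a list gene counts by its brightest probe only, so the comparison is rough. Of 13 measured arachidonate release genes, 3 were called higher and 1 lower with GFP in clusters (median -0.03), and 2 and 2 of 11 in endothelium (median 0.08). Pla2g4a, the cytosolic phospholipase that supplies cyclooxygenases, gave 2.14 and 2.31 in GFP+ clusters, 0.38 and 0.54 in GFP- clusters, -0.67 and -0.69 in GFP+ endothelium, and -1.08 and -0.77 in GFP- endothelium. Clusters lay above endothelium and GFP+ above GFP- clusters, with no overlap. The difference with GFP in clusters was 1.76 ± 0.12 (adjusted p = 0.000349), and clusters exceeded endothelium by 2.90 among GFP+ cells (adjusted p = 6.74e-05) and 1.39 among GFP- cells (adjusted p = 0.00221). Pla2g7, which breaks down platelet-activating factor, was higher with GFP in endothelium by 0.94 ± 0.047 (adjusted p = 0.000179), and Pla2g5, a secreted phospholipase, lower (-0.76, adjusted p = 0.00190). The Pla2g5 call ended with quantile normalization (-0.56, adjusted p = 0.0642) and in the authors' deposited values (-0.57, adjusted p = 0.0542).

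Of 8 other prostanoid synthases measured, 2 were called higher and 1 lower with GFP in clusters (median -0.09, against 11.9% and 20.0% of all probes and a median of -0.07), and 0 higher and 6 lower of 7 in endothelium (median -0.24, against 18.2% and 33.8% and a median of -0.12). Hpgds, the other prostaglandin D synthase, known from blood cells, was well above background only in GFP+ clusters of the 4 groups (-3.80 and -4.11). It was at least 2.37-fold higher there than in GFP- clusters (adjusted p = 0.00489) and at least 3.15-fold higher than in GFP+ endothelium (adjusted p = 0.000611). Tbxas1, thromboxane synthase, gave -2.17 and -2.30 in GFP+ clusters, -3.93 and -3.81 in GFP- clusters, -3.21 and -3.07 in GFP+ endothelium, and -2.89 and -2.91 in GFP- endothelium. It was higher with GFP in clusters (1.63 ± 0.078, adjusted p = 0.000103). In endothelium the difference was -0.24 (adjusted p = 0.0447, and 0.0561 with the slide as a replicate block); that call also ended with quantile normalization (adjusted p = 0.0562), without either array of GFP- endothelium or array 1 of GFP+ endothelium (0.123 to 0.190) and without either array of GFP- clusters (0.0550). The GFP difference in clusters minus that in endothelium was 1.87 ± 0.11 (adjusted p = 0.00142). Clusters minus endothelium was 0.91 among GFP+ cells (adjusted p = 0.000497) and -0.97 among GFP- cells (adjusted p = 0.00159). Thromboxane synthase and Hpgds are known in macrophages and megakaryocytes, whose summed marker levels are given above.

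**Figure D4:**
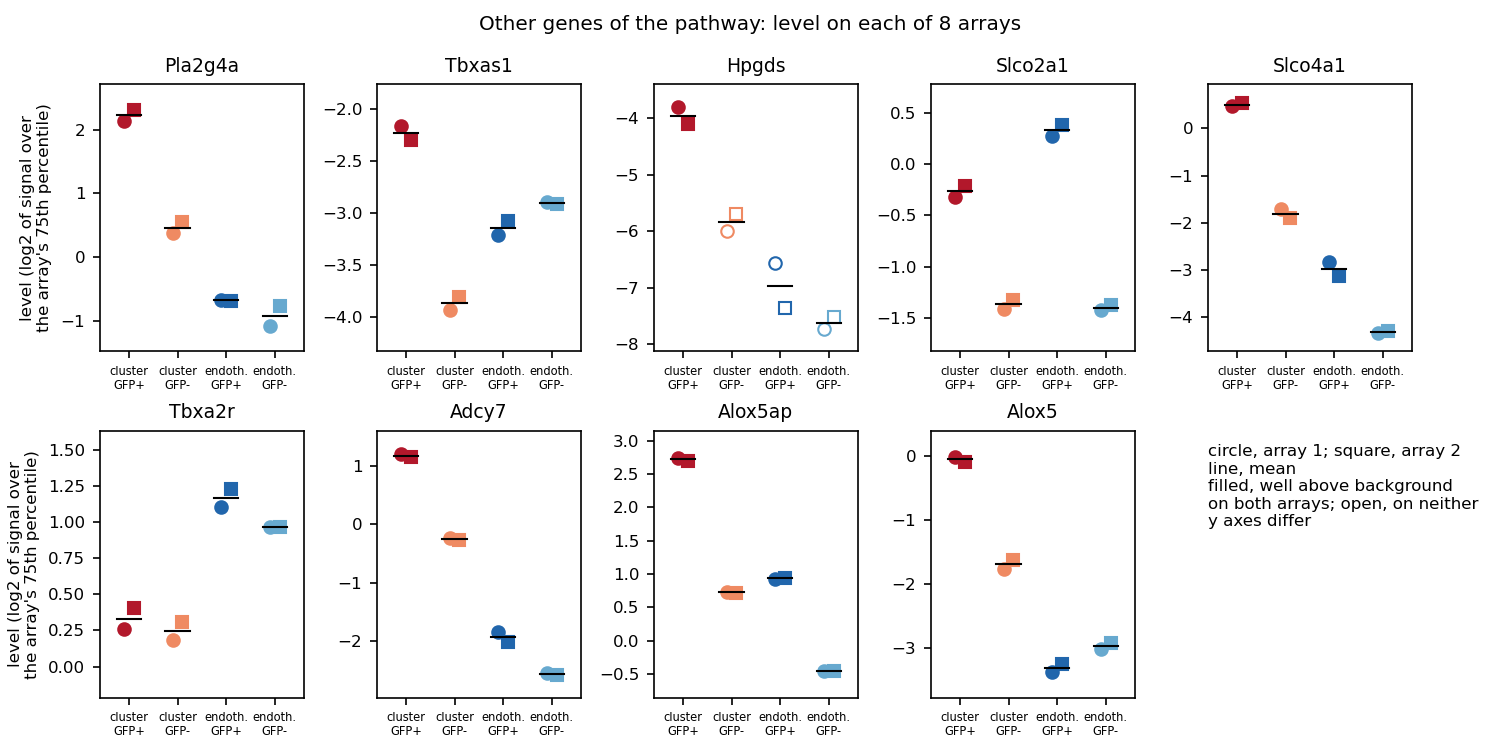
Level of 9 further genes of the pathway on the 8 arrays, as log2 of the processed signal over the array's 75th percentile, with symbols as in the plot of the member probes; y axes differ. Pla2g4a, Slco4a1, Adcy7, Alox5ap and Alox5 were highest in GFP+ clusters, Slco2a1 and Tbxa2r in GFP+ endothelium.

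Of 4 other prostanoid receptors measured in clusters, 1 was called higher and 1 lower with GFP (median 0.04, against 11.9% and 20.0% of all probes and a median of -0.07). Of 5 in endothelium, 2 were higher and 0 lower (median 0.20, against 18.2% and 33.8% and a median of -0.12). Tbxa2r, the thromboxane receptor, was lower in clusters than endothelium (-0.83 ± 0.078 among GFP+ cells, adjusted p = 0.000663; -0.72 among GFP- cells, adjusted p = 0.00400). Ptgfr, the receptor of prostaglandin F2alpha, was well above background only in GFP+ endothelium of the 4 groups, at least 1.66-fold above GFP- endothelium (adjusted p = 0.0218). That call ended without either array of GFP+ endothelium or array 2 of GFP- endothelium (adjusted p from 0.0688 to 0.102), when dim probes were not filtered out (0.0514) and with normexp without the 2 spots (0.264). Ptgir, the prostacyclin receptor, is named after its values were seen: it was measured in no group, and was well above background on 1 of 2 arrays of GFP+ endothelium and on none of the other 6 arrays.

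Of the 8 transport and breakdown genes, all measured, 2 were called higher and 1 lower with GFP in clusters (median 0.11, against 11.9% and 20.0% of all probes and a median of -0.07). In endothelium 3 were higher and 3 lower (median -0.07, against 18.2% and 33.8% and a median of -0.12). Slco2a1, the prostaglandin transporter, gave -0.32 and -0.21 in GFP+ clusters, -1.41 and -1.33 in GFP- clusters, 0.28 and 0.38 in GFP+ endothelium, and -1.43 and -1.37 in GFP- endothelium. GFP+ endothelium was highest and the GFP- groups overlapped, an order near that of Ptgis. It was higher with GFP by 1.73 ± 0.067 in endothelium (adjusted p = 9.48e-05) and 1.11 ± 0.067 in clusters (adjusted p = 0.000214), and lower in GFP+ clusters than GFP+ endothelium (-0.59, adjusted p = 0.00119). Slco4a1, a related organic anion transporter, was higher with GFP by 2.31 ± 0.12 in clusters (adjusted p = 0.000120) and 1.32 ± 0.12 in endothelium (adjusted p = 0.000714), and 3.49 higher in GFP+ clusters than GFP+ endothelium (adjusted p = 3.24e-05). Hpgd, the enzyme that starts prostaglandin breakdown, is also named after its values were seen. Its GFP difference was -0.08 ± 0.067 in clusters (adjusted p = 0.395) and 0.21 ± 0.067 in endothelium (adjusted p = 0.0415).

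Of 40 measured cyclic AMP signalling genes, 8 were called higher and 15 lower with GFP in clusters (median -0.14, against 11.9% and 20.0% of all probes and a median of -0.07). In endothelium 16 of 43 were higher and 6 lower (median 0.15, against 18.2% and 33.8% and a median of -0.12). Adcy7, an adenylate cyclase of blood cells, had levels of 1.20 and 1.15 in GFP+ clusters, -0.24 and -0.26 in GFP- clusters, -1.84 and -2.02 in GFP+ endothelium, and -2.55 and -2.57 in GFP- endothelium. It was higher with GFP in clusters by 1.43 ± 0.069 (adjusted p = 0.000108) and in endothelium by 0.64 ± 0.069 (adjusted p = 0.00131). Pde3a, a phosphodiesterase that breaks down cyclic AMP, was well above background on both arrays of GFP+ endothelium and neither of GFP- endothelium by both of its tested probes, which differed in size. By the brighter probe it was at least 5.88-fold higher in GFP+ than GFP- endothelium (fitted difference 3.67, adjusted p = 0.00348), and the fitted value ran from 2.89 without array 1 of GFP- endothelium to 4.45 without array 2. By the other probe the fitted difference was 1.54 ± 0.31 (adjusted p = 0.0101), so the bound holds for the brighter probe only.

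Of 17 measured genes reported to respond to prostaglandin E2, 5 were called higher and 6 lower with GFP in clusters (median -0.0034, against 11.9% and 20.0% of all probes and a median of -0.07). In endothelium 8 were higher and 6 lower (median 0.09, against 18.2% and 33.8% and a median of -0.12). Runx1, the factor blood emergence depends on, was higher with GFP in clusters by 1.96 ± 0.090 (adjusted p = 9.24e-05) and in endothelium by 0.88 ± 0.090 (adjusted p = 0.00107). Its other probe gave 2.15 in clusters (adjusted p = 5.46e-05) and a fitted 2.18 in endothelium (adjusted p = 8.48e-05), where GFP- cells were not well above background for it. The Wnt factor Lef1 was lower in both (-1.17 and -0.92, adjusted p = 9.50e-05 and 0.000267). Ccnd1, the G1 cyclin, was lower in clusters (-0.70, adjusted p = 0.000297). Klf4 and Vegfa were higher with GFP in endothelium (1.23 and 1.19, adjusted p = 0.000105 and 0.000135), and the other Vegfa probe gave 0.65 (adjusted p = 0.000774).

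Of 12 measured leukotriene genes, which draw on the same arachidonate, 6 were called higher and 1 lower with GFP in clusters (median 0.30, against 11.9% and 20.0% of all probes and a median of -0.07). In endothelium 3 were higher and 8 lower (median -0.38, against 18.2% and 33.8% and a median of -0.12). Alox5ap, which presents arachidonate to 5-lipoxygenase, was higher with GFP in clusters by 1.99 ± 0.043 (adjusted p = 1.54e-05) and in endothelium by 1.39 ± 0.043 (adjusted p = 5.92e-05). Alox5, 5-lipoxygenase itself, was higher with GFP in clusters by 1.64 ± 0.079 (adjusted p = 0.000107), and in GFP+ clusters stood 3.25 above GFP+ endothelium (adjusted p = 1.29e-05). Mgst2, one of the enzymes that makes leukotriene C4, rose with GFP in clusters by 1.57 ± 0.076 (adjusted p = 0.000107), and Mgst3, its relative, was lower (-1.47, adjusted p = 0.000280). Ltb4r2, a leukotriene B4 receptor, was lower with GFP in endothelium (-1.80 ± 0.24, adjusted p = 0.00257). These are genes of macrophages and granulocytes as well, and the 12 macrophage markers had a median difference of 1.84 with GFP in clusters and the 8 blood markers one of 1.93; their part in the result was not tested.

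As a description over the 8 arrays, which fall into 4 pairs, the levels most like those of Ptgs1 were of Tapbp (Pearson r = 0.996), Tom1l1 (0.996) and Slfn2 (0.995). Those most like Ptgis were of Bmx (0.997), Jam2 (0.997) and Als2cl (0.996). The Ptger3 probe from base 1803, above background on 7 of 8 arrays, was closest to Snora74a (0.996). Ptgds was closest to Ift140 (0.993), and the 3′ Ptges probe to Dnajc5 (0.989). The probes of Ptgs2, Ptger2 and Ptger3 from base 1069 were above background on 3, 2 and 3 of the 8 arrays, too few for such a description.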

How the data were processed

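Per the labels' protocols, the divided RNA was amplified with the Ovation RNA-Seq System V2 and labelled with Cy3 for 1-colour arrays. The deposited intensity values were read with Agilent Feature Extraction (version 10.10.1.1, per the submitters' processing notes), and the processed signal used here had its background removed by that software, per the file headers. A table of normalized intensity by the authors was deposited too, by a method not given in the sources used here. It was linear, each column had a median of 198, and it served as an alternative.

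Processed signals were turned to log2 and set relative to the 75th percentile of the array's non-control probes. Outlier spots were left out and spots of 1 probe averaged, leaving 39419 probes, of which 24364 were tested. All probes were fitted in limma 3.58.1 (R 4.3.3, with the data.table package, version 1.17.8) over the 8 arrays with a mean per group and 4 residual degrees of freedom. Two-sided tests were used, with Benjamini-Hochberg adjustment over all tested probes and a threshold of 0.05; the fit was tested on simulated data. The number of arrays limits the precision. Genes were named by RefSeq accession where the annotation (GRCm38.p6, used for names and promoters) held it; coordinates of probes are those of the files, on mm9.

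Replicate numbers are slides, each holding all 4 groups, while position on the slide cannot be told apart from group. The numbers were taken to pair the arrays by slide. Replicate differences of the groups correlated from 0.127 to 0.344 across probes, which alone does not establish the pairing. The slide as a replicate block changed 1 member call, given in the results.

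The members and lists were chosen with earlier results of these data known. From each list, up to 4 called genes with the largest differences in a comparison could be named, and a part of these is; likeness is the Pearson correlation over the 8 arrays among tested probes of named genes. The alternatives were normexp (offset 50), quantile normalization, the authors' table, other filters on dim probes, a gene by its brightest probe, the slide block, trend and robust moderation, fits on the compared groups, each array left out and values within each slide.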

Additional observations from a re-analysis of the deposited data

Results flagged for a closer look

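The term for a GFP difference that is larger in clusters than in endothelium passed in limma for 5 member probes, of which 1, Ptgs1, was measured in all 4 groups. Its GFP difference was larger in clusters by 0.25 ± 0.058 (adjusted p = 0.0256; 0.25 and 0.25 on the 2 slides). The other 4 probes were not well above background on 1 or more arrays of a group, so for them a difference between the classes cannot be read. Ptger2 was not well above background on any of the 4 endothelial arrays. The fitted values, which partly compare readings not well above background, were 2.42 ± 0.27 for Ptger2 (adjusted p = 0.00392), 1.44 ± 0.26 for Ptger3 from base 1803 (adjusted p = 0.0130), 1.05 ± 0.17 for Ptger3 from base 1069 (adjusted p = 0.00949) and 1.10 ± 0.27 for Ptgds (adjusted p = 0.0295). All 5 fitted values were positive on both slides. Of all probes measured in the 4 groups, 16.2% were called larger in clusters and 15.9% smaller.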

How the results depend on the processing

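The number of called probes in the 5 comparisons (cluster GFP, endothelial GFP, GFP+ class, GFP- class, interaction) was 7543, 12301, 11415, 5738 and 6596, and of member genes 5, 5, 6, 3 and 1. With normexp these became 107, 71, 123, 2 and 0 probes and 0 member genes in each; by unadjusted p below 0.05, limma gave 1754, 3564, 2838, 1440 and 1777 probes. Leaving out 2 spots of high background, an alternative chosen after seeing the data, gave 2 member genes in endothelial GFP, 3178 probes and 1 member gene in the GFP- class and 4339 probes and 0 member genes in the interaction (2 by unadjusted p). Quantile normalization and the authors' table each gave 3 member genes in endothelial GFP. With no filter on dim probes there were 4517, 1699 and 3335 probes in cluster GFP, the GFP- class and the interaction, with 0 member genes in the GFP- class (5 by unadjusted p) and 2 in the interaction. Requiring all arrays above background left 3 member genes to test. Of these, 2, 3, 3 and 2 were called in cluster GFP, endothelial GFP, the GFP+ class and the interaction. Of all 20579 probes left by that filter, 7723, 11716, 11021 and 7581 were called in these comparisons. Trend and robust moderation gave 2 in the interaction. Fits on the compared groups gave 2983 probes and 0 member genes in the GFP- class (3 by unadjusted p). Beyond the filters and the left-out spots, the cause was not tested.

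Leaving out each array gave 4250 to 6702, 8784 to 12252, 8713 to 10636, 1789 to 5074 and 3862 to 4968 probes in the 5 comparisons, and 5 to 6, 2 to 5, 6 to 7, 0 to 3 and 0 to 0 member genes. In endothelial GFP, 2 member genes were called without any 1 of the 4 endothelial arrays. In the GFP- class there were 0 without array 1 of GFP- endothelium (3 by unadjusted p), and 1 without array 2 of GFP- endothelium or array 1 of GFP- clusters. Cluster GFP had 4250 and 4657 probes without array 1 or 2 of GFP- clusters. The interaction had 1 or 2 member genes by unadjusted p.

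Normexp turned 10 differences. In endothelial GFP they were Ptges from base 3583 (0.20), Pde3a (-0.073), Pparg (-0.042), Slco4a1 (-0.40), Ptgfr (-0.91), Adcy7 (-0.13) and Runx1 (-0.40). In the GFP- class they were Ptger3 from base 1803 (-0.77), Pparg (-0.19) and Akr1b3 (0.047). With the slide as a replicate block the calls numbered 8201, 13529, 12384, 6442 and 7577 probes and 5, 5, 7, 3 and 1 member genes. The block ended the calls of Tbxas1 in endothelial GFP (adjusted p = 0.0561), Ppard in the GFP+ class (0.0531) and Ptges2 in the GFP- class (0.0517). Another probe had the opposite sign for Pla2g7 in the GFP- class and for Runx1 and Cysltr1 in the interaction. Signals near background limit Ptgs2 and Ptger2 to bounds in the main scaling, or to fitted values. They leave Ptger3 from base 1069 with fitted values only, and so too Ptgds and Ptger3 from base 1803 where GFP+ endothelium is compared.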
